A study of Mus musculus with 3 samples.

Results

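The heme synthesis genes are the 9 genes Alas1, Alas2, Slc25a38, Alad, Uros, Urod, Cpox, Ppox and Fech, chosen by name from the pathway and read by every non-control probe that carries one of these names on the array. They were 9 of the 34797 names on the array and had 11 of its 55679 probes, with a pair of probes each for Alas1 and Uros and 1 probe for every other gene. All 11 probes were well above background, by the scanner software's own flag, in all 3 samples. RNA came from islet graft-bearing spleens of male C57BL/6 mice (C57BL/6J in the sample labels) made diabetic with streptozotocin, and the recipients were given syngeneic islets, of which 25 went into the spleen and 100 under the capsule of a kidney. Sample 1 was spleen taken on day 0, just after transplantation, Sample 2 was taken on day 2, and Sample 3 was taken on day 139, after the kidney with its graft had been removed on day 100. The capsular graft is given for all 3 samples by the protocol text and the methods, but the per-sample treatment entries list it for day 139 alone. How many mice gave RNA to an array is not given in the sources used here, the methods give 1 age range for mice in general and no age for each sample, and no spleen without islets or without streptozotocin was analysed here. Each condition had 1 array, so differences between samples describe these arrays, no p-value is given, and the day, the age of the mouse, the nephrectomy and the array cannot be told apart.

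Heme is built in a fixed order of steps that begins and ends in the mitochondrion. ALA synthase joins glycine to succinyl-CoA and sets the rate, and it exists as a housekeeping form, Alas1, and an erythroid form, Alas2. The middle steps run in the cytosol, and the last enzyme, ferrochelatase, puts iron into protoporphyrin. The mouse spleen keeps making red cells in adult life, mostly in the red pulp, where erythroid precursors need large amounts of heme for hemoglobin, and its macrophages take heme from old red cells apart again.

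Signals below are linear intensities after quantile normalization of the 3 arrays, and an error after a signal is the scanner software's estimate for that spot, not a spread between mice. A ratio is 1 sample's signal divided by another's. A probe was called higher with a ratio of at least 1.5 and a Z-score of at least 2, and lower with a ratio of at most 0.66 and a Z-score of at most -2. To obtain the Z-score, a log2 ratio was scaled by its typical spread (SD) among the 1000 probes of closest brightness, so it compares a probe with other probes and not with replicate mice. Detection on 1 array or more was met by 32108 probes, and 30291, 29981 and 28085 were detected on days 0, 2 and 139. The 7 spike-in controls used, read before normalization, stood at 65.99% of their day 0 signal on day 139 and at 103.6% on day 2. Scaling to these spike-ins in place of quantile normalization moved the median log2 ratio of all probes from -0.02 to 0.35 in Sample 3 over Sample 1 and from -0.04 to 0.39 in Sample 3 over Sample 2, and the share of higher among all called probes from 53.3% to 79.5% and from 57.4% to 85.3%. Spleen markers were present, with all 10 B cell and all 10 T cell markers well above background on every array and the spleen transcription factor gene Tlx1 at signals of 520.0, 464 and 389.8 (ratios of 0.893 and 0.750 for Samples 2 and 3 over Sample 1).

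On day 2 the pathway genes lay on both sides of day 0. On day 139 all 9 had, by their brightest probe, the lowest quantile-normalized signal of the 3 samples. With spike-in scaling this held for 6 of them (Alas1, Alad, Uros, Cpox, Ppox and Fech). Of these only Cpox, at -0.51, then differed from day 2 by more than the scanner error of 0.20 on a log2 ratio. The others lay at -0.14 to -0.05 over day 2. In Sample 2 over Sample 1 the log2 ratios ran from -0.40 for Alad to 0.36 for Alas2, with 4 genes higher, 5 lower and a median of -0.20 by the brightest probe of each gene, a median that turned to 0.07, with Uros at 0.07, when the median over the probes of a gene was used. None of the 9 genes was called, beside 1.91% of all probes called higher and 2.55% lower, and none passed either ratio limit, which 10.1% of all probes passed as higher and 10.4% as lower. By the brightest probe all 9 genes were lower on day 139 than on day 0, with a median of -0.74 (a ratio of 0.598). They ranged from -1.23 for Cpox to -0.23 for Alas2, while 52.2% of all probes were lower and their median was -0.02. With the median over the probes of a gene the median of the 9 genes was -0.44. The dimmer probe of Alas1 was not lower (ratio 1.08). Of the 9 genes, 5 (Alas1, Alad, Uros, Cpox and Ppox) had a ratio of at most 0.66, which 14.7% of all probes had, and only Cpox was called lower, as 2.21% of all probes were. None was called higher, as 2.52% of all probes were, or passed the higher ratio limit, as 12.8% did. With spike-in scaling Alas2, Urod and Slc25a38 turned to log2 ratios of 0.18, 0.12 and 0.11 in Sample 3 over Sample 1 and the median of the 9 genes became -0.34. Relative to the median of all probes, which scaling moves along with the genes, the median of the 9 genes was -0.72 with quantile normalization and -0.69 with spike-in scaling. In whole spleen RNA, fewer cells of a type and less RNA per cell cannot be told apart.

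**Figure D1:**
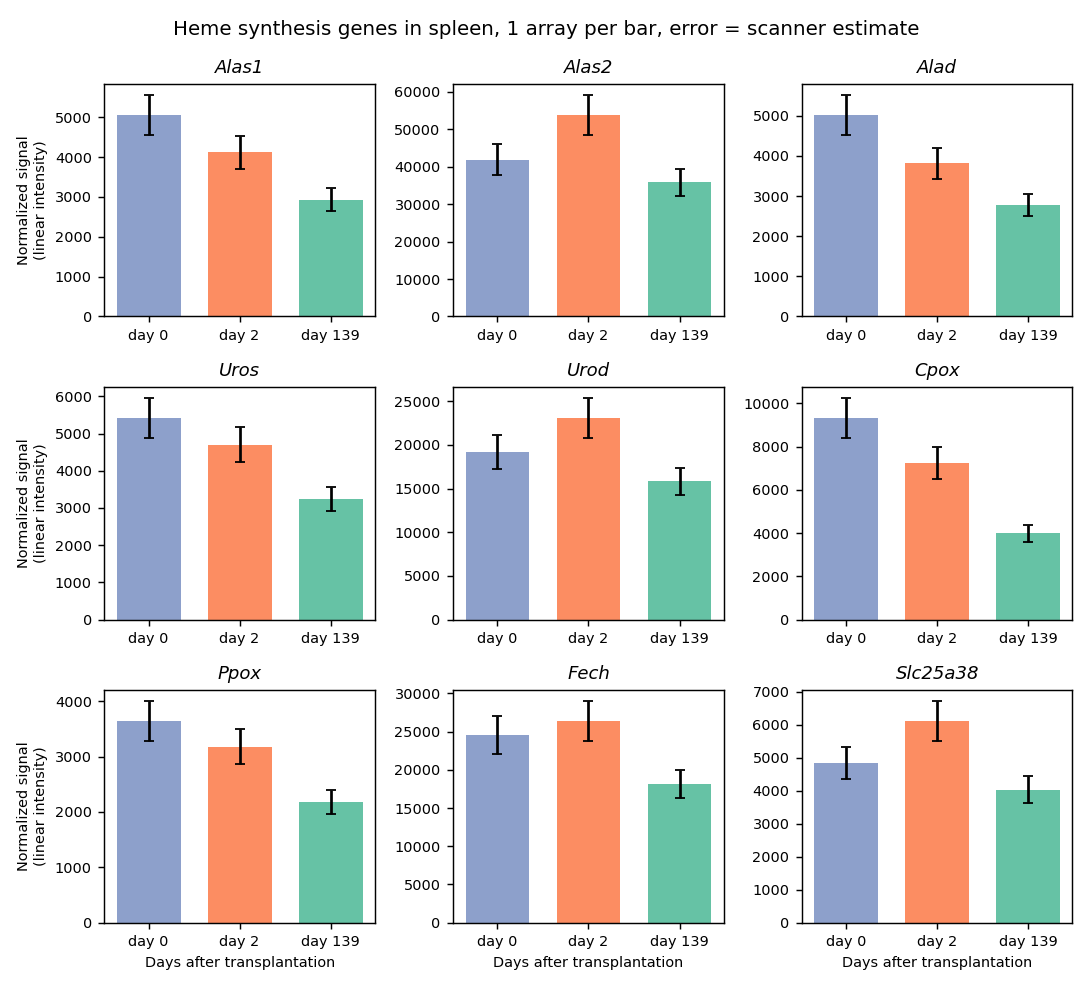
Normalized signal (linear intensity) of the brightest probe of each heme synthesis gene on day 0, day 2 and day 139, with 1 array per bar and the scanner software's error estimate as the error bar. Day 139 has the lowest bar in all 9 panels, though Alas2, Urod and Slc25a38 turn above day 0 with spike-in scaling, and day 2 has the highest bar for Alas2, Urod, Fech and Slc25a38.

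The erythroid ALA synthase gene was highest on day 2 and the housekeeping one, by its brighter probe, on day 0. Neither was called in any comparison. Alas2, the erythroid form, whose loss of function causes sideroblastic anemia, had normalized signals of 41909 ± 4191 on day 0, 53825 ± 5383 on day 2 and 35838 ± 3584 on day 139. Day 2 was the highest sample, by a ratio of 1.28 over day 0 (log2 0.36, Z-score 1.02), and day 139 was the lowest, by 0.855 over day 0 and 0.666 over day 2 (Z-scores of -0.51 and -1.41). The scanner errors correspond to 0.20 on each log2 ratio, close to the day 139 to day 0 value of -0.23, which became 0.18 with spike-in scaling.

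Alas1, the form used by most cells, had signals of 5061 ± 506, 4127 ± 413 and 2928 ± 293 by its brighter probe. They went down from day 0 to day 2 (ratio 0.815) and were lowest on day 139 (0.579 over day 0, Z-score -1.30). Set against each other on the same arrays, the log2 ratio of Alas2 was above that of Alas1 by 0.66 ± 0.29 (scanner error) in Sample 2 over Sample 1 and by 0.56 ± 0.29 in Sample 3 over Sample 1, and the difference was -0.09 ± 0.29 in Sample 3 over Sample 2, all with the brighter probe of Alas1. With its dimmer probe the differences were 0.37, -0.34 and -0.70 (each ± 0.29), so the direction in Sample 3 over Sample 1 turned with the probe. The comparisons share arrays. The dimmer probe of Alas1, further along the transcript by its position, did not show the change, with signals of 188 ± 19.2, 188 ± 19.1 and 203 ± 20.8 and a ratio of 1.08 in Sample 3 over Sample 1. The lower value of Alas1 on day 139 thus rests on 1 of its 2 probes.

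The sequences that read or precede these genes are shown for the ALA synthase pair and for Cpox, the only member called. The probe of Alas2 lies at chrX:147004993-147005052 on mm9, plus strand, and in its first reading frame the stop codon, in capitals, follows 13 codons and leaves 18 bases after it.
Alas2 probe: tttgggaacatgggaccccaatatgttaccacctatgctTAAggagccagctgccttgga
The probes of Alas1 lie on chromosome 9 of mm9, minus strand, at 106136284 to 106136343 (brighter) and 106135796 to 106135855 (dimmer). RefSeq sequence before the start site (GRCm38.p6) was matched for 8 of the 9 genes, all but Fech, with 11 start sites in all. The 250 bases before each start were searched on both strands for the GATA motif, which the erythroid factor Gata1 is known to bind and which was taken as GATA after A or T and before A or G, and for the palindromic motif of Nrf1, a factor of mitochondrial genes, whose letters are the capitals of the Alas1 line. Capitals mark the matches, read 5′ to 3′ on the gene's strand.
Alas2, chrX:150547167-150547416, plus strand: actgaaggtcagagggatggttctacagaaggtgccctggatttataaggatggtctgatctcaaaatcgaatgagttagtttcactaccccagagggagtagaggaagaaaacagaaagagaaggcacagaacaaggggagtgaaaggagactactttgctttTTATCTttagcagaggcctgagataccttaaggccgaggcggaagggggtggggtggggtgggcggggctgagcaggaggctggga
Cpox, chr16:58669958-58670207, plus strand: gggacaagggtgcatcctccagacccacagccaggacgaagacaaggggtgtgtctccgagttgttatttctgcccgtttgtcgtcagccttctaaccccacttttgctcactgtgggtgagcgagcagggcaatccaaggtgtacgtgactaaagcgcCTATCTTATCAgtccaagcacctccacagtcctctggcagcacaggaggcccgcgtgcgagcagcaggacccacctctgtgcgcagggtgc
Alas1, chr9:106247906-106247935, minus strand: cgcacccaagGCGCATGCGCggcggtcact
The Alas2 window held 1 GATA match, which begins 86 bases before the start, and the Cpox window held 2, which begin 91 and 86 bases before it and share a base. The third gene with a match was Uros, with 2 in the window of its other start site. 3 of the 11 member windows held a GATA match, beside 26.5% of the 32851 windows of all genes. The Nrf1 motif stood before 1 of the start sites of Alas1, 195 bases from it, and in no other member window, and 0.782% of all windows held it. These matches describe letters, and binding was not measured.

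Among the glycine carrier and the cytosolic enzymes, Slc25a38 and Urod were highest on day 2 and Alad and Uros, by its brighter probe, on day 0, and none was called. Slc25a38, the mitochondrial carrier that brings in glycine for ALA synthase, had signals of 4834 ± 483, 6116 ± 612 and 4032 ± 403. Its order over the samples was that of Alas2, with ratios of 1.26 in Sample 2 over Sample 1, 0.834 in Sample 3 over Sample 1 and 0.659 in Sample 3 over Sample 2. The last value passed the ratio limit but not the Z-score (-1.02). Its probe lies at chr9:120033376-120033435 on mm9.

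Alad, which joins a pair of ALA molecules into porphobilinogen, had signals of 5023 ± 502, 3811 ± 381 and 2774 ± 278. Each sample was lower than the one before it, and its ratio of 0.552 in Sample 3 over Sample 1 had a Z-score of -1.43. Its probe (chr4:62172559-62172618 on mm9) has a second reading frame that is open throughout, so it can lie wholly in coding sequence. This does not set it apart, because of the member probes only the brighter one of Uros had no open frame.
Alad probe: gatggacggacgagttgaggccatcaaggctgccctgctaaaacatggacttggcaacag
Uros, which closes the tetrapyrrole ring, had signals of 5419 ± 542, 4701 ± 470 and 3234 ± 323 by its brighter probe (chr7:140878069-140878128). By its dimmer probe, which carries a different accession (chr7:140883818-140883876), they were 124 ± 12.8, 156 ± 16.0 and 84.0 ± 9.49. The probes were both lowest on day 139, at ratios of 0.597 and 0.679 over day 0, but day 2 lay below day 0 by the brighter (0.867) and above it by the dimmer (1.26). Urod, the next enzyme, which trims the side chains to coproporphyrinogen, had signals of 19222 ± 1922, 23089 ± 2309 and 15819 ± 1582. Like Alas2 it was highest on day 2, at 1.20 over day 0, and lowest on day 139, at 0.823 over day 0 and 0.685 over day 2.

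Of the 3 enzymes that finish heme in the mitochondrion, Cpox had the largest difference of any member. Cpox, which oxidizes coproporphyrinogen, had signals of 9328 ± 933 on day 0, 7243 ± 724 on day 2 and 3987 ± 399 on day 139 (probe at chr16:58680403-58680465 on mm9). It fell between day 0 and day 139 to a ratio of 0.427 (log2 -1.23 ± 0.20, Z-score -2.20), and only 4.95% of all probes had a lower ratio there. Over day 2 its ratio was 0.551, past the ratio limit with a Z-score of -1.48. The call was lost under spike-in scaling (log2 -0.82) and with 1 SD over all probes as the spread.

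Ppox, the next enzyme, had signals of 3641 ± 364, 3179 ± 318 and 2177 ± 218. Its ratio of 0.598 in Sample 3 over Sample 1 had a Z-score of -1.20. Its probe spans 178 bases of chromosome 1 (173207452 to 173207629) with 60 bases of sequence, so its sequence is not contiguous in the genome. The spans of the Cpox probe and of the dimmer Uros probe, at 63 and 59 bases, also differ from 60. Fech, the ferrochelatase that inserts iron, had signals of 24581 ± 2458, 26384 ± 2638 and 18161 ± 1816. Days 0 and 2 were within the error of each other (ratio 1.07), and day 139 was lower than both, at 0.739 and 0.688. Its probe lies at chr18:64616928-64616987 on mm9.

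By the brightest probe of each gene, Alas2, Slc25a38, Urod and Fech had log2 ratios of 0.10 to 0.36 in Sample 2 over Sample 1 and of -0.44 to -0.23 in Sample 3 over Sample 1. Alas1, Alad, Uros, Cpox and Ppox had -0.40 to -0.20 and -1.23 to -0.74. The dimmer probes lay outside these last ranges, at -0.01 and 0.11 for Alas1 and at 0.34 and -0.56 for Uros, which by that probe was higher on day 2. These sets were read off the first comparison, and both comparisons share the Sample 1 array, so the gap between the sets in the second is no separate result. In Sample 3 over Sample 2, where Sample 1 plays no part, the ranges by the brightest probe were -0.60 to -0.54 and -0.86 to -0.46. By that probe 8 of the 9 genes lay between -0.60 and -0.46. The dimmer probes lay outside these ranges, at 0.12 for Alas1 and -0.90 for Uros. No member probe was called there, where 1.77% of all probes were called lower and 2.39% higher. By the brightest probe 2 genes (Cpox and Slc25a38) passed the lower ratio limit, as 14.4% of all probes did. None passed the higher limit, as 12.4% did. The dimmer probe of Uros passed the lower limit as well (ratio 0.537, Z-score -1.44). Probes of like signal differed between 2 samples with an SD of 0.35 to 0.65 on the log2 scale, while spots of the same probe at signals of 500 and above differed on an array with a median SD of 0.05 to 0.06.

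**Figure D2:**
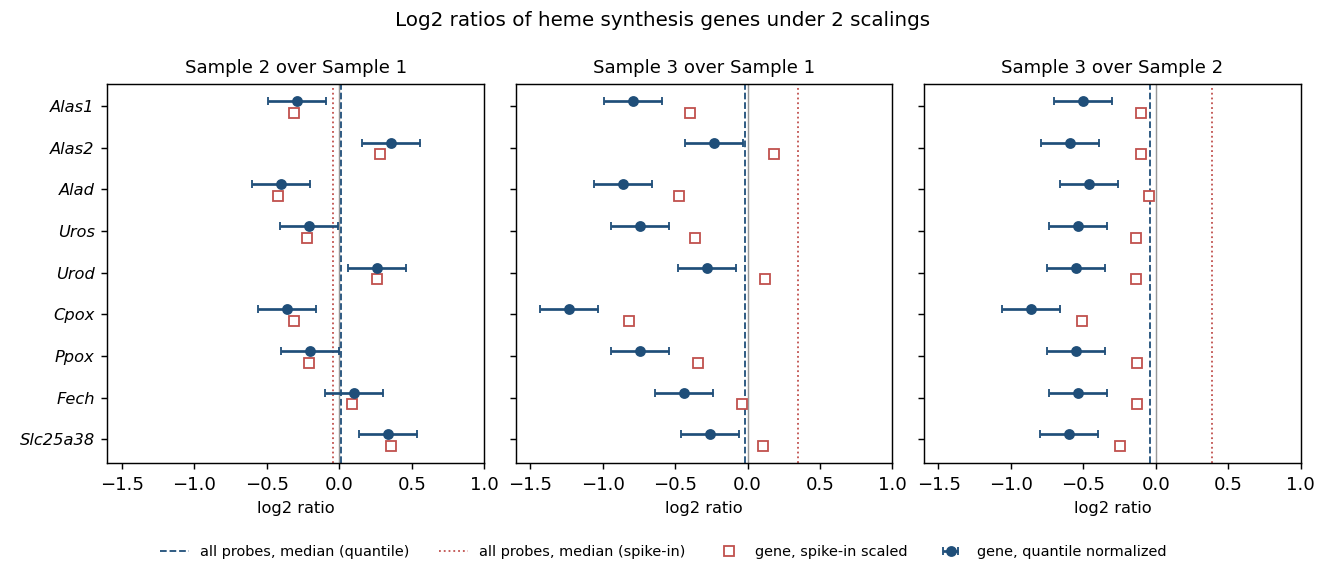
Log2 ratio (horizontal axis) of each heme synthesis gene, by its brightest probe, in the 3 comparisons, quantile normalized (filled circles, bars are the scanner error) and spike-in scaled (open squares), with the median of all probes under each scaling as vertical lines. In Sample 3 over Sample 1 the circles of all 9 genes lie left of 0 and the squares of Alas2, Urod and Slc25a38 right of it, and Cpox lies furthest left in Sample 3 over either earlier sample.

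Genes that bring iron to ferrochelatase had a median log2 ratio of -0.37 on day 139 over day 0, which became 0.06 with spike-in scaling. Of these 15 genes 11 had a ratio below 1, 4 passed the lower ratio limit and 1 was called lower. Of all probes 52.2%, 14.7% and 2.21% did so. The transferrin receptor gene Tfrc, the main entry of iron into erythroid cells, had signals of 3961, 2824 and 2072, in the order of the brighter Alas1 probe. Slc25a37, the mitochondrial iron carrier of erythroid cells, had 44699.5, 39699 and 31074, and Slc25a28, its counterpart in other cells, had 1871, 2002 and 2003. Neither was called. Fam132b, which encodes erythroferrone, a hormone that erythroid precursors release to lower hepcidin, was called lower in both later samples, with signals of 229 on day 0, 37.0 on day 2 and 26.4 on day 139 (log2 ratios of -2.63 and -3.12 over day 0). Between day 2 and day 139 the transferrin receptor 2 gene Tfr2 (signals of 1507, 2269 and 934) and Steap3, an endosomal iron reductase (1034, 1343 and 541), were called lower, with Z-scores of -2.11 and -2.27. Tfr2 had the largest ratio of the list in Sample 2 over Sample 1 (log2 0.59), and Ncoa4, the receptor for ferritin breakdown, the largest in Sample 3 over Sample 1 (0.24). Iron-sulfur clusters are held by ferrochelatase in mammals. Of the 13 genes for their assembly none was called in any comparison, where 1.77% to 2.55% of all probes were called in each direction. Their medians were -0.14 on day 2 over day 0 and -0.16 on day 139 over day 0 (0.23 with spike-in scaling), and their largest log2 ratios were 0.27 for Glrx5 in the first and 0.23 for Hscb in the second.

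Transporters of porphyrin and heme had medians of 0.00, -0.30 and -0.43 in Sample 2 over Sample 1, in Sample 3 over Sample 1 (0.10 with spike-in scaling) and in Sample 3 over Sample 2 (-0.01 with spike-in scaling), over 11 genes. Abcb10, a mitochondrial transporter known in erythroid heme synthesis, had signals of 5172, 4890 and 2943, and Abcg2, which exports porphyrins, had 6564, 5724 and 3551, the smallest ratio of the list in Sample 3 over Sample 1 (log2 -0.89). In Sample 2 over Sample 1 the smallest was that of Slc25a39 (-0.38). Flvcr2 was called higher in both later samples over day 0, with log2 ratios of 2.16 and 1.72, but from a dim signal of 18.4 on day 0, against 82.2 and 60.9 later.

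Of the genes that take heme apart, Hmox1, the inducible heme oxygenase, was highest on day 0, with signals of 35149.6 on day 0, 11015 on day 2 and 16617 on day 139. It was called lower in both later samples over day 0, at log2 ratios of -1.67 (Z-score -3.68) and -1.08 (-2.03). Spic, the transcription factor of red pulp macrophages that heme induces, had 13170, 4011 and 9906 and was called lower in Sample 2 over Sample 1 (log2 -1.72) and higher in Sample 3 over Sample 2 (1.30). Hmox2, the constitutive heme oxygenase, had the largest ratio of the 6 genes in both comparisons with day 0, at 0.27 and 0.29. The list had medians of -0.16, -0.33 (0.06 with spike-in scaling) and 0.14 (0.51) in the 3 comparisons.

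Regulators of ALA synthase and of heme use had medians of 0.09, -0.09 and -0.07 over 12 genes, and the last 2 became 0.29 and 0.37 with spike-in scaling. Gata1 had signals of 9122, 11179.9 and 4832 and was called lower in Sample 3 over Sample 2 (log2 -1.21, Z-score -2.14), and Klf1 had 1989, 1789 and 955, the smallest ratio of the list in Sample 3 over Sample 1 (-1.06, Z-score -1.93). Bach1, a repressor that heme inactivates, had 973, 738 and 873, and Eif2ak1, the heme-regulated kinase that holds back globin translation, had 659.5, 829 and 581. Foxo1 had the largest ratio in Sample 3 over Sample 1 (0.75), and Nr1d1 the smallest in Sample 2 over Sample 1 (-0.40). In the globin list, which includes the chaperone gene Ahsp, the median of the 7 detected genes was 0.00 in both comparisons with day 0. Quantile normalization limits what can be seen there. Hba-a1 was the brightest probe on every array and so received a signal of 427413 in each, and Hbb-b1 had 336977, 360704 and 336977. With spike-in scaling the median of the globin list on day 139 over day 0 was 0.64, beside 0.35 for all probes. The spike-ins themselves stood at 65.99% of their day 0 signal on that array. Only 6 of the 7 genes detected in that list, all but Hbb-bh1, were well above background on all 3 arrays. Ahsp, which encodes the chaperone of alpha globin, was called lower in Sample 2 over Sample 1, with signals of 55275, 26557 and 37240 (log2 -1.06), and had the smallest ratio of the list in Sample 3 over Sample 1 as well (-0.57). Hbb-y, an embryonic globin gene, had the largest ratio in both comparisons among globin probes well above background on both arrays (0.28 and 0.69). Its signals were dim, at 34.85, 42.43 and 56.27.

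Like the heme synthesis genes, most erythroid markers were lower on day 139 than on day 0. So were the megakaryocyte and platelet list and the cell cycle list, with medians of -0.62 and -0.64 (both -0.24 with spike-in scaling). Of 22 erythroid markers, 21 were well above background on all 3 arrays, none was at background on every array, and their summed signal was 191280 on day 0, 188578 on day 2 and 135115 on day 139. On day 139 over day 0, 20 of the 22 were lower, beside 52.2% of all probes. The erythroid median was -0.63 (-0.23 with spike-in scaling), against -0.74 for the heme synthesis genes. A ratio of at most 0.66 was found for 12 of the 22, beside 14.7% of all probes. Called lower were 2.21% of all probes and 2 of the 22. These were Ank1, a gene of the red cell skeleton (log2 -1.16, Z-score -2.04), and Rhag, a gene of the Rh complex (-1.14 and -2.15). Spnb1 (21.4, 22.0 and 8.41) did not reach detection on day 139, and with dim signals raised to the floor of detection the median was -0.60. Over day 2 the median of day 139 was -0.56 (-0.52 with that floor), against -0.55 for the heme synthesis genes, and with spike-in scaling these medians were -0.16 and -0.13. In that comparison Gfi1b was called lower (-1.32). The erythroid median on day 2 over day 0 was -0.09, with Trim58 called higher from a dim signal (31.0 to 76.3, and 68.5 on day 139) and Epb4.2 lowest (-0.72). The 10 B cell markers were higher on day 139, by a median of 1.1 over day 0, and had a summed signal of 59404, 60643 and 114246. Of the 10, 5 were called higher over day 0, beside 2.52% of all probes. The part of cell composition in the heme synthesis values was not tested.

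**Figure D3:**
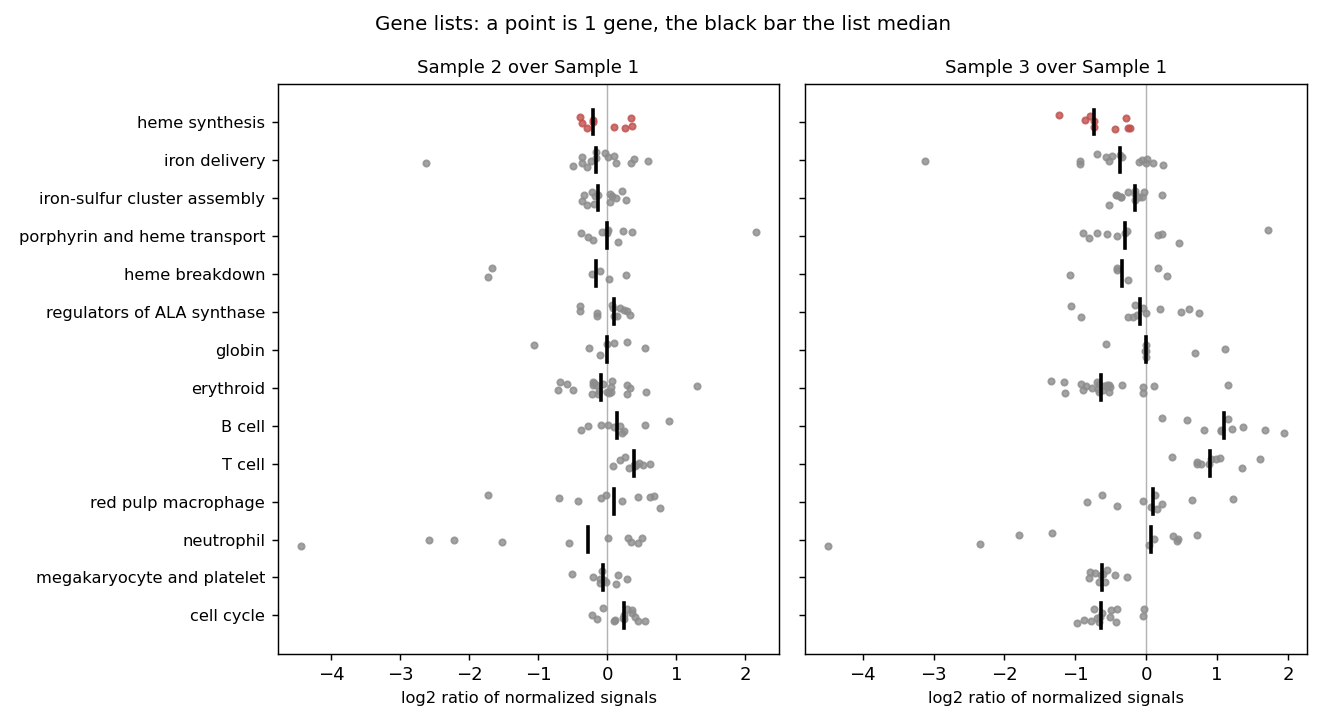
Log2 ratio of normalized signals (horizontal axis) for each gene of the lists, with heme synthesis genes in red, other lists in grey and the list median as a black bar. In Sample 3 over Sample 1 the heme synthesis median of -0.74 lies beside those of the erythroid (-0.63), megakaryocyte and platelet (-0.62) and cell cycle (-0.64) lists and on the other side of 0 from the B cell list (1.1).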

How the data were processed

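The authors deposited the scanner output of 1 one-color (Cy3) array per sample, with the intensity of each 60-base probe on a linear scale after background subtraction and detrending and before normalization between arrays. The file headers name Feature Extraction 10.7.1.1, and the labels and methods name 9.5.1.1. They also deposited a table of quantile-normalized intensity values, which for the 11 member probes differed from the values computed here by at most 0.085%. Control spots and spots with an outlier flag were removed here, the remaining spots of each probe were averaged, quantile normalization was run across arrays on 55679 probes, and log2 was taken after values under 1 had been set to 1. Quantile normalization hides differences in total mRNA. Calls followed the methods' limits on ratio and Z-score, and the Z-score's formula, which the methods do not give, was chosen here. The brightest probe well above background on at least 1 array stood for a gene. All member probes are reported, and from other lists the extremes of both comparisons with Sample 1, any called gene and 12 genes fixed by name, apart from a few genes that are not reported here. The members and lists were chosen with earlier results of these data known. Array names were used, with 3 genes found through RefSeq synonyms (GRCm38.p6). The number of arrays limits the precision. R 4.3.3 with limma 3.58.1 served for the normexp alternative, and Python 3.11.15, numpy 2.4.6 and pandas 2.3.3 for the rest.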

Additional observations from a re-analysis of the deposited data

How the results depend on the processing

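Results were computed under 13 other settings for the 9 genes. Spike-in scaling changed most. In Sample 3 over Sample 1 it left 0 genes called lower (1 before) and 1 past the lower ratio limit (5 before), with a median log2 ratio of -0.34 (-0.74 before), and in Sample 3 over Sample 2 it left 0 past that limit (2 before), with a median of -0.13 (-0.55 before). Among all probes it took the share called lower in Sample 3 over Sample 1 from 2.21% to 1.21%. The share past the lower limit went from 14.7% to 7.59% there and from 14.4% to 6.0% in Sample 3 over Sample 2. The spread behind the Z-score moved the calls. With 1 SD over all probes 0 genes were called lower in Sample 3 over Sample 1, where 2.93% of all probes were. With a median absolute deviation 5 were called lower there (Alas1, Alad, Uros, Cpox and Ppox), and 1 (Cpox) in Sample 3 over Sample 2. At that setting 5.41% and 4.73% of all probes were called lower in these comparisons. Ratio limits of 2 and 0.5 left 1 gene and 0 genes past the lower limit in these comparisons, beside 6.94% and 6.2% of all probes. With the median over a gene's probes, which affects Alas1 and Uros, the median of the 9 genes was -0.44 in Sample 3 over Sample 1 and turned to 0.07 in Sample 2 over Sample 1. Of 351 values of single genes under these settings, 324 stayed on their side of the call and within the scanner error, 20 moved further, 5 gained a call and 2 lost one. Most settings act on the filter, the limits, the Z-score or dim signals and hardly touch the log2 ratios of these bright probes. The pooled count is therefore no measure of stability. With spike-in scaling 9 of 27 values stayed, all in Sample 2 over Sample 1, while 17 moved further and 1 lost its call. No paired analysis was possible because each condition has 1 array, and for the same reason no array could be left out.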

Other observations

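The 5 named genes nearest to Alas2 in the plane of the log2 ratios Sample 2 over Sample 1 and Sample 3 over Sample 1 were Ppwd1, Pid1, Sdk2, Nvl and Cenpt, at distances of 0.006 to 0.019. Of the 26884 probes well above background on all 3 arrays, 283 lay within 0.1 of Alas2.

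Other marker lists are given as values. Of all probes, 52.2% were lower on day 139 than on day 0, 2.52% were called higher and 2.21% were called lower. On day 139 over day 0 the megakaryocyte and platelet list had a median of -0.62, with all 10 genes lower, from -0.80 for Itga2b to -0.27 for Treml1, and the cell cycle list had -0.64, with all 14 genes lower, from -0.98 for Mki67 to -0.03 for Tyms, and Aurkb well above background on day 2 alone. Both medians were -0.24 with spike-in scaling. For T cells the median was 0.90, with all 10 genes higher, Cd247 highest (1.60) and Cd2 called (1.35). The red pulp macrophage list had a median of 0.10, with Timd4 highest (1.23) and Cd163 lowest (-0.83), and its summed signal was 90959.5, 90335 and 90616.5 in Samples 1, 2 and 3. The neutrophil list had a median of 0.07 from genes that went both ways. S100a8, S100a9, Mmp8 and Cxcr2 were called lower in both later samples over day 0, with Mmp8 at signals of 3033, 139.7 and 135. The B cell markers called higher on day 139 over day 0 were Cd79a, Cd79b, Blk, Fcer2a and Cd72, from 1.15 for Cd79b to 1.94 for Blk, with Cr2 lowest in the list (0.23), and those called over day 2 were Cd79b, Ms4a1, Cd22 and Blk. Over day 2, Pf4 of the platelet list (-1.08) and Birc5 of the cell cycle list (-1.1) were called lower, and Spic (1.30) and Timd4 (1.32) of the macrophage list, which shares Spic with the heme breakdown list, were called higher. The extremes on day 2 over day 0 were Fcer2a (0.90) and Ms4a1 (-0.38) for B cells, Thy1 (0.62) and Cd247 (0.08) for T cells, Adgre1 (0.76) and Spic (-1.72) for macrophages, Camp (0.50) and Mmp8 (-4.44) for neutrophils, Pf4 (0.29) and Itga2b (-0.51) for platelets and Mcm5 (0.55) and Pcna (-0.22) for the cell cycle. On day 139 over day 0, Lat was lowest among T cell markers (0.37) and Camp highest among neutrophil markers (0.72).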
